A study of Rattus norvegicus with 6 samples.

Results

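The genes described here encode the precursors of 8 neuropeptides: galanin (Gal), neuropeptide Y (Npy), vasoactive intestinal peptide (Vip), pituitary adenylate cyclase-activating polypeptide or PACAP (Adcyap1), somatostatin (Sst), the tachykinins including substance P (Tac1), the enkephalins (Penk) and cholecystokinin (Cck). They were found by symbol: every probe set to which the platform annotation assigned exactly 1 of these symbols was taken, which gave 9 probe sets (2 for Adcyap1, 1 for each other gene) of 31042 that are not Affymetrix controls. The 8 genes are 8 of 14217 that the annotation names. The rats were adult male Brown Norway, and RNA came from their retinal ganglion cells, whose axons leave the eye as the optic nerve. They were labelled in both eyes by Fluorogold injected into the superior colliculus, and 2000 cells per eye were cut out by laser capture. In each of 3 rats the pressure of 1 eye had been raised for 10 days by hypertonic saline injected into an episcleral vein, a model of glaucoma, and the fellow eye served as control. Each eye gave 1 array after linear amplification of its RNA. The labels name the eyes (OD, right, n = 3; OS, left, n = 3) and not the treated side, so every difference below is OS minus OD within a rat, and whether OS or OD was the pressurized eye is unknown.

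Neuropeptides are cut from larger precursor proteins in dense-core granules, released on strong firing, and act on G protein-coupled receptors. In the retina, Vip, Sst, Tac1, Penk, Npy and Cck are known from subsets of amacrine cells, the inhibitory interneurons that lie beside ganglion cells, and Adcyap1 from ganglion cells that carry the photopigment melanopsin. In sensory neurons of the dorsal root ganglia, Gal, Npy, Vip and Adcyap1 are known to be induced when the axon is cut. Transcription of several of these genes is known to respond to cyclic AMP through a palindromic element bound by CREB.

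Start regions of 6 of the 8 genes were matched by symbol in RefSeq sequences of assembly GRCr8; Penk and Cck had no entry. Those of the 3 genes on which the results turn are shown, because Npy had the largest difference between eyes, Gal was the only member whose eyes did not overlap, and Sst held the cyclic AMP element. Each line runs 5′ to 3′ on the coding strand from 120 bases before the annotated transcript start through the first 30 transcribed bases, and capitals mark matches to the motifs named after them. The regions are chr4:80211991-80212140 on the plus strand for Npy, chr1:210084543-210084692 on the minus strand for Gal and chr11:90461426-90461575 on the plus strand for Sst.
Npy: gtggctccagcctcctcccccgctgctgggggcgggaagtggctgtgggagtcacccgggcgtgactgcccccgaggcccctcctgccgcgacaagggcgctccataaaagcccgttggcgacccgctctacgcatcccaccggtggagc
Gal: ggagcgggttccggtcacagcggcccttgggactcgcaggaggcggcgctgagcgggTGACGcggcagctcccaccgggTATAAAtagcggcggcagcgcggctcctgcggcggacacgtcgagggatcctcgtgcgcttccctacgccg
Sst: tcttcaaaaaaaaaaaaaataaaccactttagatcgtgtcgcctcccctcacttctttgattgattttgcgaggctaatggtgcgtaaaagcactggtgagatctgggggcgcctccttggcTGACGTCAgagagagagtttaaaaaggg

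Motifs were searched on both strands in the full window of 300 bases, 250 before the start and 50 from it. The full cyclic AMP element, TGACGTCA, was in the window of Sst alone among the 6, beginning 2 bases downstream of the annotated start, and 1.83% of all 33469 windows hold it. Its shorter form TGACG, which every full element also contains, was in the windows of Gal (63 bases before the start), Vip (97 bases before it), Tac1 (206 bases before it) and Sst, and in 21.2% of all windows. The TATA motif TATAAA was in those of Gal (41 bases before the start), Vip (175, 165 and 48 bases before it) and Adcyap1 (248 bases before it), and in 14.2% of all. A match is a description of letters in these windows.

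Signal was read against background on each array. The limit was the 95th percentile among 27 bacterial control probe sets other than the hybridization spike-ins, and it lay between 261 and 591 on the deposited intensity scale. The median array value lay between 313 and 369. The ganglion cell marker Thy1 exceeded it on all 6 arrays by the brighter of its 2 probe sets, and 14 of 17 ganglion cell marker genes on the arrays exceeded it on at least 4 of the 6. Some genes listed here as markers of other retinal cells were bright as well. Gad1 (by its brighter probe set) and Pax6 of the amacrine list and Rlbp1 of the glial list exceeded the limit on all 6 arrays. Whether the captured ganglion cells themselves express these genes was not tested. At least 4 arrays were reached by 8 of 20 amacrine, 7 of 13 glial and 13 of 17 photoreceptor marker genes. For 4 of the amacrine genes no array exceeded it. In RNA from pooled captured cells, fewer cells of a type and less RNA per cell cannot be told apart.

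Of the 54 member values (9 probe sets on 6 arrays), 24 lay above the limit of their array. Over all probe sets the share of values above it was 45.5%. The 24 comprised 15 of 27 OD values and 9 of 27 OS values. Over all probe sets the share above the limit was also larger in OD than in OS of rat 1 (58.1% and 47.6%) and of rat 3 (52.1% and 45.5%), where the OD limit was the lower, and it was 34.8% and 34.9% in rat 2. All 6 arrays were above the limit for 0 of the 9 probe sets, against 11.3% of all, and 0 arrays for 1 of the 9, against 14.8% of all. Npy came closest with 5 arrays, followed by Adcyap1 (1368892_at) and Cck with 4, Gal and Tac1 with 3, Sst and Penk with 2 and Vip with 1. At least 4 arrays were thus reached by 3 of the 9, against 35.7% of all probe sets. The second Adcyap1 probe set, 1394908_at, stayed below the limit on every array. In rat 1, 6 members exceeded the limit on the OD array and 1 on the OS array. In rat 2 each array had 2, and in rat 3 there were 7 on OD and 6 on OS. With the highest control in place of the 95th percentile 16 values remained above, and with the median control 44.

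**Figure D1:**
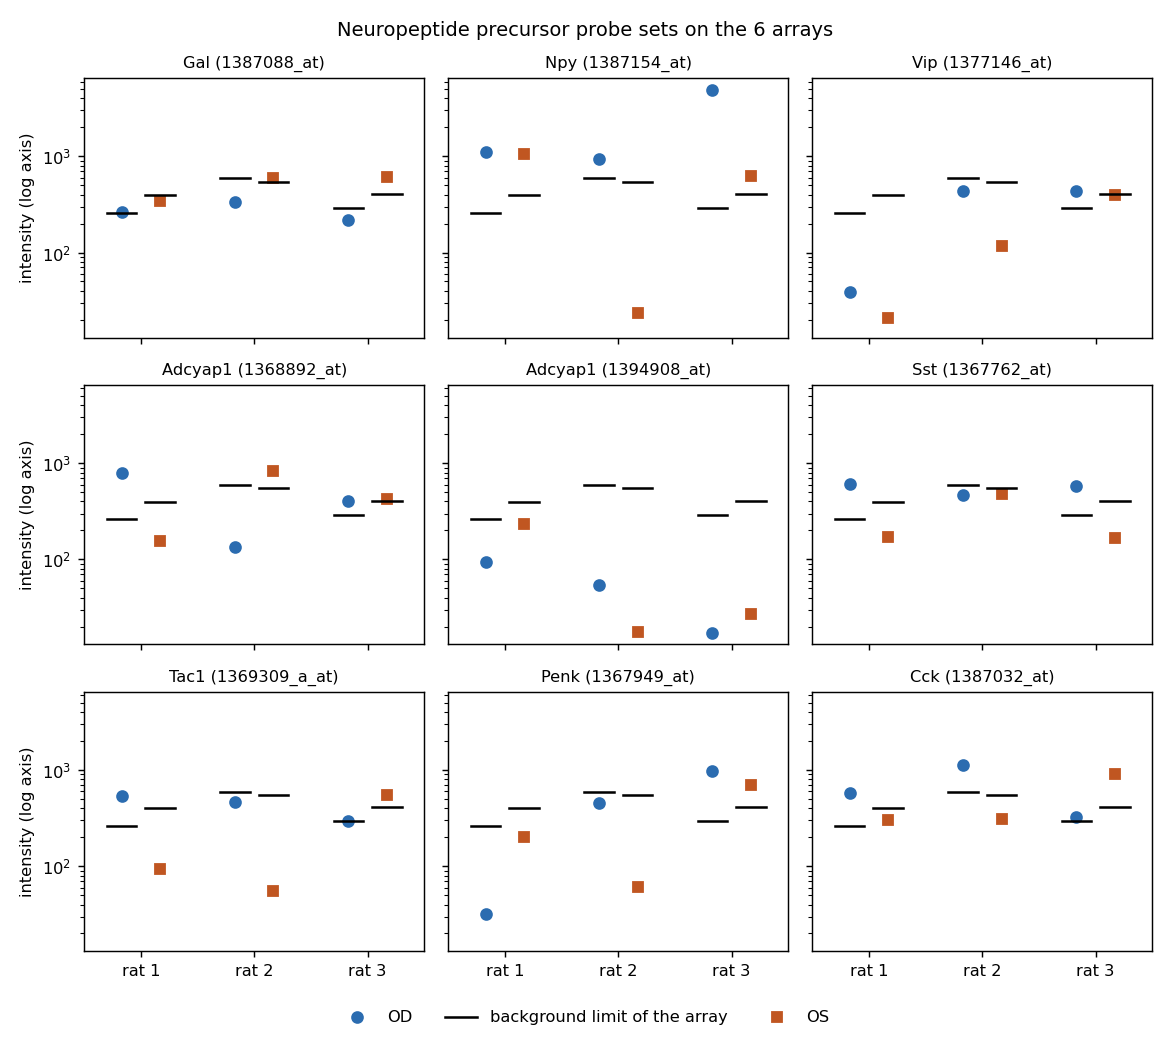
Deposited intensity (log axis) of each of the 9 neuropeptide precursor probe sets in the right eye (OD, circles) and left eye (OS, squares) of rats 1 to 3; each short bar is the background limit of that array. Npy stands above the bar on 5 of 6 arrays, and 30 of the 54 points lie at or below their bar.

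Npy (1387154_at) encodes neuropeptide Y, a peptide amide that mostly inhibits transmitter release. Its OD intensities were 1108.8, 945.4 and 4873.5 in rats 1 to 3, all above the limit, and its OS intensities were 1070.9, 23.6 and 621.2. The eyes of rat 1 had nearly the same value, the OS array of rat 2 lay far below its limit of 547, and the OD array of rat 3 was the brightest of the 6. The ranges of the eyes overlapped, since OS of rat 1 exceeded OD of rat 2. On the log2 scale, after an offset of 16 was added, OS minus OD was -0.05, -4.60 and -2.94 in rats 1 to 3, a mean of -2.53 ± 2.30 (SD, n = 3 rats). The 95% interval from the limma fit over all tested probe sets was -4.13 to -0.93, and the adjusted p was 0.402 (unadjusted 0.00347), so the difference did not pass the threshold of 0.05. By unadjusted p it ranked 133 of the 15521 probe sets tested, and 73 had a more negative difference. The interval rests on variance pooled over probe sets, not on the wide spread of these 3 differences alone. That it excludes 0 is thus no measure of agreement between the rats. With no replicate block the unadjusted p by limma was 0.0502. Without rat 1 the mean was -3.77 (limma adjusted p = 0.103) and without rat 2 it was -1.49 (0.514). With each value below its limit raised to that limit, a setting chosen after the data were seen, it was -1.25 (0.439), because the OS value of rat 2 was then no lower than background.

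Gal (1387088_at) encodes galanin, which acts on its own family of receptors in many neurons. Its OD intensities were 264.0, 332.3 and 219.0, and its OS intensities 342.7, 590.3 and 614.1. Each OS value was above each OD value, so the eyes did not overlap, but OS of rat 1 and OD of rats 2 and 3 lay below their limits and OD of rat 1 was at 1.01 times its limit. Among all probe sets, 10.0% had eyes that did not overlap, 5.36% with OS above. The log2 differences were 0.36, 0.80 and 1.42, with a mean of 0.86 ± 0.54 (SD, n = 3 rats), the smallest spread between rats among the 9 members. The limma interval ran from -1.07 to 2.79 and the adjusted p was 0.872. The pooled variance of the fit, not the spread of these 3 differences alone, sets that interval.

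Vip (1377146_at) encodes vasoactive intestinal peptide, which raises cyclic AMP in its target cells. Its OD intensities were 38.9, 433.9 and 433.9 and its OS intensities 20.7, 117.6 and 400.8. Only OD of rat 3 exceeded its limit, and both arrays of rat 1 were lower than the other 4. Its mean log2 difference was -0.81 ± 0.85 (SD, n = 3 rats), lower in OS in 3 of 3 rats, in values that are mostly background. Without rat 2 it was -0.35, and with values raised to the limit its sign turned (0.13). It was too dim for the fit, which kept probe sets at or above the median brightness. In the fit without this filter the adjusted p was 0.953.

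Adcyap1 encodes PACAP, a close relative of VIP that shares 2 of its receptors. The probe set 1368892_at gave OD intensities of 791.6, 135.0 and 402.0 and OS intensities of 154.0, 822.6 and 427.0. Rats 1 and 2 were opposed, with OD above and OS below background in rat 1 and the reverse in rat 2, while the eyes of rat 3 were alike. The log2 differences were -2.25, 2.47 and 0.08, a mean of 0.10 ± 2.36 (SD, n = 3 rats; limma 95% interval -2.00 to 2.21, adjusted p = 0.990). The other probe set, 1394908_at, read between 17.3 and 235.0, below the limit on all 6 arrays, and went the other way from 1368892_at in rats 1 and 2 (1.18 and -1.07). No level of Adcyap1 can be taken from it.

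Sst (1367762_at) encodes somatostatin, an inhibitory peptide. Its OD intensities were 603.3, 464.7 and 579.1, and its OS intensities 170.5, 475.9 and 165.0. All 3 OS arrays lay below their limits, as did OD of rat 2, where the eyes had about the same value. The eyes overlapped only through OS of rat 2. The log2 differences were -1.73, 0.03 and -1.72, a mean of -1.14 ± 1.01 (SD, n = 3 rats; limma 95% interval -3.11 to 0.83, adjusted p = 0.831). Against the background limits of the OS arrays, the mean log2 OD signal was 1.22-fold higher. That is no lower bound on the difference, since OD of rat 2 was itself below its limit. The measured means were 549 ± 74.0 in OD and 270 ± 178 in OS (SD, n = 3).

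Tac1 (1369309_a_at) encodes the precursor of substance P and neurokinin A. Its OD intensities were 532.4, 466.2 and 297.1 and its OS intensities 92.8, 55.5 and 544.4. OS was the dimmer eye in rats 1 and 2 and the brighter in rat 3, where OD was only 1.01 times its limit. The mean log2 difference was -1.42 ± 1.96 (SD, n = 3 rats), and in the limma fit without the brightness filter the adjusted p was 0.893. It was -0.75 without rat 2 and -2.54 without rat 3, and with values raised to the limit its sign turned (0.11).

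Penk (1367949_at) encodes proenkephalin, the source of Met- and Leu-enkephalin, which act on opioid receptors. Its OD intensities were 31.7, 459.0 and 971.4 and its OS intensities 200.8, 60.5 and 704.8. It exceeded the limit only in rat 3, in both eyes, and both arrays of that rat were brighter than the other 4. The mean log2 difference was -0.30 ± 2.41 (SD, n = 3 rats; limma adjusted p without the filter 0.985). Without rat 2 it was 0.87 and without rat 1 -1.54.

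Cck (1387032_at) encodes cholecystokinin. Its OD intensities were 580.1, 1141.7 and 328.1, all above their limits, and its OS intensities 305.0, 307.2 and 903.0, of which only that of rat 3 exceeded its limit. OD was the brighter eye in rats 1 and 2 and OS in rat 3. The log2 differences were -0.89, -1.84 and 1.42, a mean of -0.44 ± 1.68 (SD, n = 3 rats; limma 95% interval -2.14 to 1.26, adjusted p = 0.932). Without rat 2 the mean was 0.26.

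**Figure D2:**
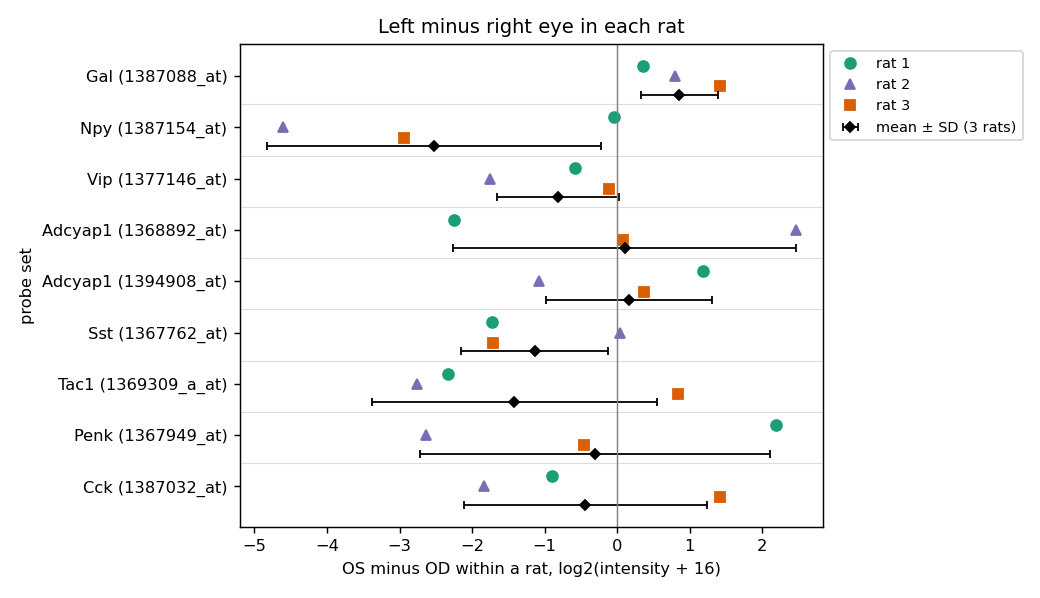
Difference between the left and right eye (OS minus OD) on the log2(intensity + 16) scale for each neuropeptide precursor probe set; coloured symbols are rats 1 to 3 and black diamonds with bars are the mean ± SD over the 3 rats. Gal lies to the right of 0 and Npy and Vip to the left in all 3 rats, with Npy of rat 1 at -0.05; in the other 6 probe sets the rats fall on both sides.

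Across the members, 5 of the 9 probe sets were bright enough for the fit (Gal, Npy, Adcyap1 1368892_at, Sst and Cck) and 0 of the 5 passed by limma after adjustment, against 0.0129% of all tested probe sets. At an unadjusted p under 0.05 there was 1 of the 5, Npy, against 6.91% of all tested. Without the brightness filter 0 of the 9 passed (smallest adjusted p 0.256, again for Npy; 0.0290% of all probe sets passed), and 1 of the 9 had an unadjusted p under 0.05, against 6.26% of all probe sets. The mean was lower in OS for 6 of the 9 and higher for 3, with 48.0% of all probe sets lower. The median of the 9 mean differences was -0.44, beside 0.05 over all probe sets. The direction was the same in all 3 rats for 3 of the 9 (Npy and Vip lower, Gal higher in OS), against 27.1% of all probe sets (12.2% lower and 14.9% higher). Of the 27 differences within a rat, 16 were at least 2-fold, 11 of them lower in OS and 5 higher; over all probe sets 51.3% of such differences were at least 2-fold. Read against these shares, the counts give no result particular to the members, which were not tested as a group.

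Values also differed between rats. The median difference of the 9 member probe sets was -0.58 in rat 1, -1.75 in rat 2 and 0.08 in rat 3. The -1.75 was the value of Vip, which lay below the limit in both eyes of rat 2. Over the 5 tested members alone, the medians were -0.89, 0.03 and 0.08. For 3 of the 9 members, 1 rat had both arrays above or both below the other 4: rat 1 was lowest for Vip and highest for Adcyap1 1394908_at, and rat 3 was highest for Penk. Over all probe sets 38.3% had such a rat. Npy in OD of rat 3 was 16.6 times its limit, the highest ratio of the 54 values, and the next highest was Npy in OD of rat 1 at 4.26 times.

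For the 3 members above the limit on at least 4 arrays, the genes with the most similar profile were sought by the root mean square distance of centred log2 values over the 6 arrays. Nearest to Npy were Adgrf5 (0.60), an adhesion G protein-coupled receptor gene, and Derl1 (0.64), whose product retrotranslocates misfolded proteins from the endoplasmic reticulum. Like Npy, both were very low on the OS array of rat 2, at 18.0 and 39.5. Nearest to Adcyap1 1368892_at were Colgalt1 (0.14) and Csnk1e (0.16), and nearest to Cck were Cntln (0.21) and Apbb2 (0.22). The 6 arrays come from 3 rats, and the distances are given as a description.

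The receptors of these peptides were represented by 22 genes, of which 10 were bright enough to test. By limma 0 of the 10 passed and 0 had an unadjusted p under 0.05; means were lower in OS for 4 and higher for 6. The list's median log2 difference was 0.25, beside -0.01 over all tested probe sets. Sstr3, a somatostatin receptor, was the only one above the limit on all 6 arrays (0.13 ± 1.08, SD, n = 3 rats). The smallest p was for Oprm1, the mu opioid receptor, at -1.81 ± 1.22, lower in OS in 3 of 3 rats (limma adjusted p = 0.744; its other probe set was below the limit on all 6 arrays). Galr2, a galanin receptor, had 1.55 ± 1.64 by its brightest probe set and -2.29 ± 1.31 by the other. Vipr2, which binds VIP and PACAP, had 1.02 ± 2.12. The neuropeptide Y receptor gene Npy5r had -1.51 ± 2.36 by its brightest probe set. By this probe set Npy5r was below the limit on all 3 OS arrays. Averaged over the 3 rats on the log2 scale, its OD signal was at least 1.14-fold higher. In rat 1, however, OS (360.3) read above OD (268.3). The other Npy5r probe set had -0.14 ± 3.15. Of the 22, Galr3, Npy1r, Npy2r, Tacr2 and Tacr3 were below the limit on every array.

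Other neuropeptide and peptide hormone precursors numbered 41 genes, with 14 tested, of which OS had the lower mean in 6 and the higher in 8 (median 0.42) and 0 passed by limma; 2 had an unadjusted p under 0.05. Those 2 were brighter than background on 5 of 6 arrays. Cartpt encodes the CART peptide, a marker of certain ganglion cells, and had OD intensities of 5749.5, 1115.8 and 5593.8 and OS intensities of 389.0, 1405.0 and 1570.0 (-1.78 ± 2.08 on the log2 scale, SD over 3 rats; adjusted p = 0.502 by limma). Vgf encodes a granule protein that is itself cut into peptides and had -1.34 ± 1.14, lower in OS in 3 of 3 rats (adjusted p = 0.601). Sct (secretin) had 1.67 ± 1.45 and Ghrl (ghrelin) 1.23 ± 1.34, each higher in OS in 3 of 3 rats and above the limit on 3 of 6 arrays, at adjusted p of 0.802 and 0.810.

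Genes for granule proteins and precursor processing were the list in which a gene passed. Of 24 genes 19 were tested, 14 lower and 5 higher in OS by their means (median -0.55). Cpe, whose carboxypeptidase trims the cut precursors, differed by -3.61 ± 2.06 on the log2 scale (SD over 3 rats; adjusted p = 0.0464 by limma). By limma, 0 probe sets of the whole table passed with no replicate block (546 with an unadjusted p under 0.05), with a random replicate block (848), after quantile normalization (973), with an offset of 1 (1023), above the 75th percentile of brightness (638) or with no trend (855), so the call of Cpe was lost under each of these 6 settings. On the OS array of rat 2, where Npy read 23.6, Cpe read 19.8. Scg5, the 7B2 chaperone of prohormone convertase 2, had -2.42 ± 0.25, lower in OS in 3 of 3 rats, but did not pass (adjusted p = 0.207). Cadps, a granule release factor, had -1.33 ± 1.87 (0.05 ± 1.19 by its other probe set) and its paralogue Cadps2 -1.90 ± 2.38, each lower in OS in 2 of 3 rats. Since the precursors and these genes come from the same 6 arrays, their values are set side by side with no test of a relation.

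In the cyclic AMP and CREB list 19 of 23 genes were tested, 12 lower and 7 higher in OS by their means (median -0.08), and 0 passed by limma (1 with an unadjusted p under 0.05). That gene was Crebbp, the CREB-binding coactivator, at -2.22 ± 1.18 by its brightest probe set (adjusted p = 0.590). Its other tested probe sets disagreed, at 1.12 ± 0.69 (higher in OS in 3 of 3 rats) and 0.15 ± 2.77, so no direction is given for the gene. Prkar1a, a regulatory subunit of protein kinase A, had -0.63 ± 0.65, the phosphodiesterase gene Pde4b 0.91 ± 1.32 and the adenylate cyclase gene Adcy3 1.50 ± 3.30.

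**Figure D3:**
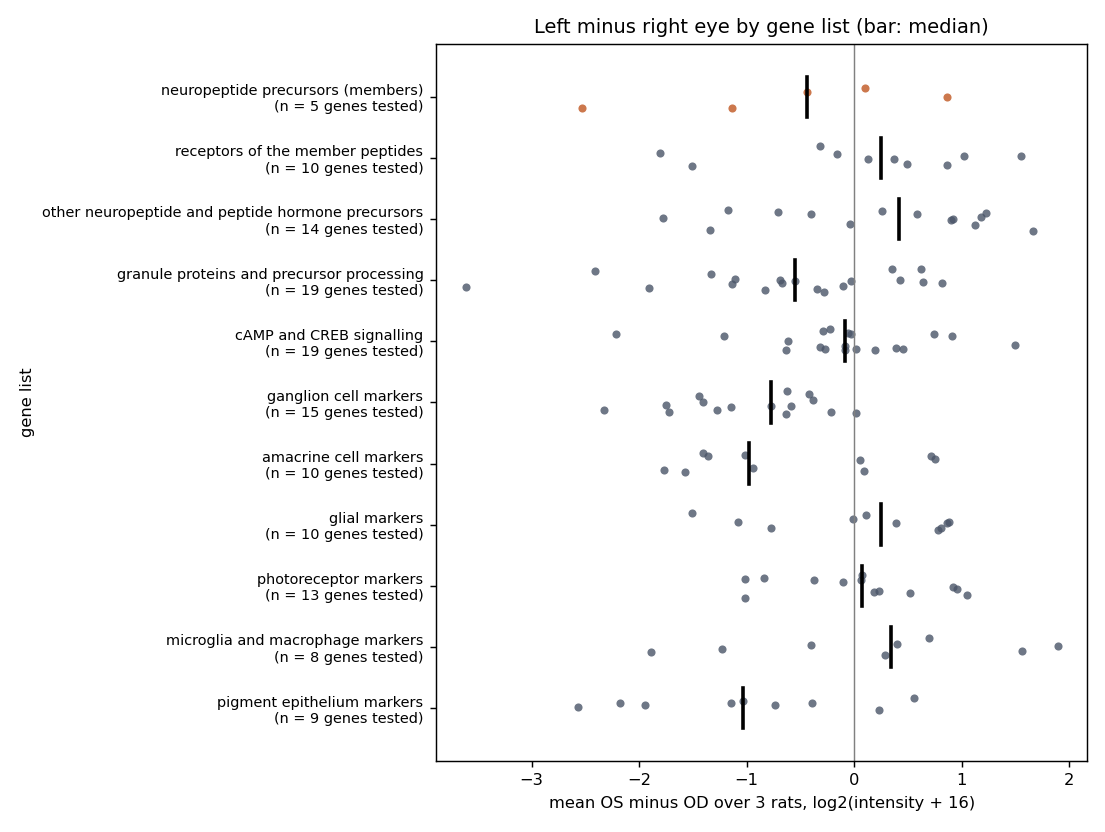
Mean difference between eyes (OS minus OD, log2(intensity + 16), 3 rats) of each tested gene, by its brightest tested probe set, in all 11 gene lists; black bars are list medians. The 5 tested neuropeptide precursors spread from -2.53 for Npy to 0.86 for Gal around a median of -0.44. Lower medians are those of granule proteins and precursor processing (-0.55) and of ganglion cell (-0.78), amacrine (-0.98) and pigment epithelium (-1.03) markers.

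Because most of these peptides are known from amacrine cells, the amacrine marker list is given beside them. Its summed intensity over 20 genes was lower in OS in 3 of 3 rats. It was 39258, 31343 and 80088 on the OD arrays of rats 1 to 3 and 15608, 17962 and 28666 on the OS arrays. A few bright genes carried most of it: on OD of rat 3, Gad1 read 25386.2, Calb2 24082.0 and Pax6 11883.2. Of the 10 tested genes, 6 were lower and 4 higher in OS by their means; the list's median per rat was -2.00, -0.68 and -0.85. In rat 1 that median was most negative. There the members lower in OS were Tac1 (-2.33), Adcyap1 1368892_at (-2.25), Sst (-1.73), Cck (-0.89), Vip (-0.58) and Npy (-0.05). Gal (0.36), Adcyap1 1394908_at (1.18) and Penk (2.18) were higher. In rat 2, where the amacrine median was least negative, 6 of the 9 members were also lower in OS. Gal (0.80), Adcyap1 1368892_at (2.47) and Sst (0.03) were higher in that rat. In rat 3, 4 of the 9 were lower. Gad1, the GABA-synthesizing enzyme, had -1.77 ± 0.80 (SD, n = 3 rats), and Pax6 -1.57 ± 0.58. No marker was listed at 0, and Chat, Pvalb, Slc18a3 and Tfap2a were below the limit on every array. The ganglion cell list summed to between 31759 and 46460 on OD and between 20200 and 27337 on OS arrays. Of its 15 tested genes 14 were lower and 1 higher in OS by their means (median -0.78). Its median per rat was -1.41, -0.93 and -0.90. Thy1 had -0.78 ± 0.16 by its brighter probe set and -0.13 ± 1.07 by the other, which was also tested. Nefl had -0.42 ± 2.67 by its brighter probe set. Of the pigment epithelium markers 7 of 9 tested genes were lower and 2 higher in OS by their means (median -1.03), and the list summed to 65820 on OD of rat 3, where Npy was brightest, and 65804 on OS of that rat. In rats 1 and 2 that sum lay between 14852 and 38810. Otx2 was the largest single value in both sums of rat 3, at 26526.1 on OD and 59255.0 on OS, and made up most of the OS sum. These sums describe the list and are no measure of pigment epithelium cells. Rgr was also higher in OS there (742.6 and 1226.9). By their brightest probe sets, Pmel (17031.4 and 1249.8), Tyrp1 (10420.0 and 781.6) and Dct (6062.3 and 1039.9) were lower in OS of rat 3. The glial list had 4 of 10 lower and 6 higher (median 0.25), with Rlbp1 at -1.51 ± 2.18. Photoreceptor markers had 5 of 13 lower and 8 higher (median 0.07), and microglia and macrophage markers 3 of 8 lower and 5 higher (median 0.34). The ratio of the 3′ to the 5′ beta-actin control probe sets exceeded that in OD by 1.94, 0.79 and 1.47 on the log2 scale in the OS eyes of rats 1 to 3; for Gapdh this difference was 0.29, 0.91 and -2.97. The part of these cell type and RNA end differences in the values of the neuropeptide genes was not tested.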

How the data were processed

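The authors deposited 1 linear intensity for each probe set of a 1-colour Affymetrix array. Per the submitters' processing notes the software was GCOS, with version and settings not given in the sources used here. Trimmed of 2% at either end, the mean was 500.1 on all arrays, so the values were taken as already scaled. The table held 31099 probe sets; 57 controls stayed out of the tests. Genes were named from the platform annotation, and the gene identifiers of the 9 member probe sets were found in the reference gene table.

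Values were log2-transformed after an offset of 16, which understates differences of dim probe sets. The brighter part of the probe sets (mean log2 from the median up, 15521) was fitted with limma 3.58.1 in R 4.3.3, with rat as a fixed block and a trended prior, two-sided. P-values were adjusted over all of them by Benjamini-Hochberg, with a threshold of 0.05. Residual degrees of freedom were 2 and prior 19.4, so the p-values lean on variance shared across probe sets. The fit was also run on simulated data, drawn with normal noise from the means and variances it had estimated. Such data cannot show whether the sharing of variance holds for these arrays. Both eyes of a rat carry its number in the titles, which pairs the arrays; deviations from the eye means correlated at 0.109, 0.122 and 0.326 between the eyes of rats 1 to 3. A gene in a list was represented by its brightest tested probe set.

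Named were all members, the 2 genes nearest in profile to a member above background on at least 4 arrays, up to 4 genes of each pathway list with the smallest p, receptors above background on all arrays, and Cpe, Thy1, Nefl, Gad1, Pax6 and Rlbp1. Members and lists were chosen with earlier results of these data known. The number of arrays limits the precision. Alternatives covered the offset, normalization, filter, block, prior, background limit and leaving out each rat.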

Additional observations from a re-analysis of the deposited data

How the results depend on the processing

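The number of member probe sets past the threshold was 0 under every alternative run. Of these, only the raising of dim values to the background limit was chosen after seeing the data. Over all probe sets, 2 passed in the fit reported. None passed by limma with a different offset (1), with quantile normalization, above the 75th percentile of mean log2, with a random replicate block, with no replicate block or with no trend (638 to 1023 with an unadjusted p under 0.05, and 546 with no replicate block). A robust prior gave 1, the offset of 64 gave 9, no filter gave 9, raised values gave 24, and leaving out 1 rat gave 18 to 59; the causes were not tested. Npy kept its sign in all 13 alternatives (-3.77 to -1.25, adjusted p 0.103 to 0.953), Gal in 12 (0.53 to 1.11) and Sst in 12 (-1.72 to -0.39). With no replicate block the adjusted p of Npy was 0.953. The sign turned for Adcyap1 1368892_at after quantile normalization (-0.036) and with raised values (-0.14). Leaving out 1 rat gave -1.08 (rat 2) to 1.28 for Adcyap1 1368892_at, -0.35 (rat 1) to 0.78 for Adcyap1 1394908_at, -1.54 to 0.87 (rat 2) for Penk and -1.37 to 0.26 (rat 2) for Cck. With raised values the sign also turned for Vip (0.13), Tac1 (0.11) and Penk (0.0082), which exceeded the limit on 1, 3 and 2 of 6 arrays. Leaving out 1 rat gave -1.17 to -0.35 for Vip and -2.54 to -0.75 for Tac1. Of the 54 member values, 44 exceeded the median control in place of 24. Signal over background limits these genes: 30 of 54 values were at or below the limit.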
